A study of Mus musculus with 24 samples.

Results

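Bone marrow-derived macrophages (BMDMs) that had received conditioned media (CM) from WT or from NRF2 KO cancer cells, both with vehicle, were compared across all genes. The members were the 6 libraries that carry these labels, 3 for WT CM/vehicle and 3 for NRF2 KO CM/vehicle, out of 24 libraries in 8 groups of the series. The cancer cells were LL2, a mouse Lewis lung carcinoma line, and the NRF2 KO line had been made in them with CRISPR plasmids delivered by nucleofection. The BMDMs came from C57BL/6 mice and were grown with M-CSF at 20 ng/mL, and the KO was in the cancer cells alone. Neither age nor sex of the mice is given for these cells. The labels do not say whether the NRF2 KO line was 1 clone, so the loss of NRF2 and other features of that line cannot be told apart. The cancer cells conditioned the medium for 48 h, the macrophages received 75% CM with 25% fresh medium, and RNA was harvested after 24 h with 0 nM CDDO-Me. For context, values are also given for macrophages in control media with vehicle, and for the same CM with 100 nM CDDO-Me, a synthetic triterpenoid.

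NRF2, encoded by Nfe2l2, is a transcription factor that turns on antioxidant and detoxifying genes, and KEAP1 holds it at a low level. Macrophages change their gene expression with the signals around them. IL-4 and IL-13 act through the IL-4 receptor, JAK kinases and the transcription factor STAT6, and drive the program called alternative activation, with arginase 1, resistin-like and chitinase-like secreted proteins and lectin receptors. Interferon gamma drives antigen presentation and inflammatory chemokines.

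The values were TPM, transcripts scaled to a common library total and corrected for length, so levels of different genes can be set side by side. One library stood apart. NRF2 KO/vehicle replicate 3 listed 15702 genes above 0, against 17880 to 18625 in the other 5 libraries, and its correlation with the libraries of its own group across genes was 0.903 and 0.909, where those libraries correlated with each other at 0.986. Its mitochondrially encoded transcripts summed to 98700 TPM, against 26909 to 33230 TPM in the other 5. The NRF2 KO CM/CDDO-Me library of replicate 3 also listed few genes, 16299, so the counts are given also without both replicate 3 libraries of NRF2 KO CM. The macrophage markers Lyz2, Cd68, Csf1r and Adgre1 were abundant in all 6 libraries, at 350.4 TPM (Adgre1) or more, and the markers of B cells, T and NK cells and erythroid cells each summed to 2.38 TPM or less. Markers of fibroblasts and stroma were present in both groups, with all 20 above 1 TPM on average. Their sums were 1777 to 3772 TPM with WT CM and 2820 to 6792 TPM with NRF2 KO CM (two-sided exact permutation p = 0.4). With 3 libraries against 3, this test allows no p below 0.1. By replicate number, the sums were 2750.5, 3772.1 and 1777 TPM with WT CM and 3528.8, 6791.6 and 2820 TPM with NRF2 KO CM. The sum was higher with NRF2 KO CM at each number, which the permutation test does not use. In bulk RNA, fewer cells of a type and less RNA per cell cannot be told apart. The edited gene could not be checked, since the KO was in the cancer cells and the RNA was from macrophages.

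WT/vehicle and NRF2 KO/vehicle BMDMs differed in 1449 of 13661 genes tested (10.6%), at an adjusted p under 0.05 in limma on log2(TPM + 1). Of these, 935 were higher with WT CM (6.84% of the genes tested) and 514 were lower (3.76%). These shares are the background for the list counts of this fit below. Of the 476 called genes with an absolute log2 difference of 1 or more, 305 were higher with WT CM and 171 were lower. Without scaling between libraries, the split turned, with 610 higher and 769 lower genes (44.2% higher, against 64.5% with scaling). Without both replicate 3 libraries of NRF2 KO CM, 812 of the 935 higher genes and 405 of the 514 lower genes were called again with the same sign. That fit called more genes in all, 2091, with 1316 higher and 775 lower. In a fit of these 6 libraries alone, 168 genes passed, and 166 of them were among the 1449; the same fit without NRF2 KO/vehicle replicate 3 called 1208 genes. The median log2 difference over all genes tested was 0.02. For 3600 genes (26.4%) all 3 libraries of one group lay above all 3 of the other, in TPM before scaling. Of these, 1446 were higher and 2154 lower with WT CM, a lean opposite to that of the calls with scaling. The 3600 genes included 1369 of the 1449.

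**Figure D1:**
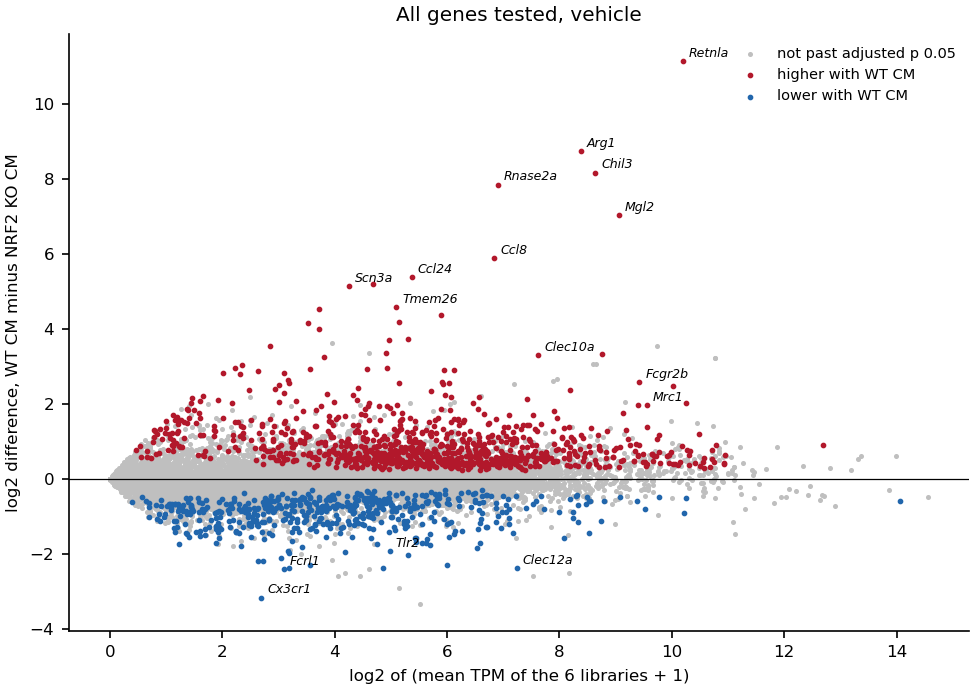
Each point is 1 of the 13661 genes tested; the x axis is log2 of the mean TPM of the 6 libraries plus 1 and the y axis is the log2 difference between WT CM and NRF2 KO CM with vehicle. Red and blue points passed adjusted p 0.05; Retnla, Arg1, Chil3, Rnase2a and Mgl2 lie at 7.04 or above (Retnla and Rnase2a were listed at 0 with NRF2 KO CM, so their height depends on the pseudocount), and Cx3cr1 is the lowest named point at -3.15.

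The genes of alternative activation rose as a group with WT CM. Of 23 list members tested, 22 were higher and 0 were lower, where 6.84% of all genes were higher, and the median log2 difference was 2.39 against 0.02 over all genes. The count was 21 without both replicate 3 libraries of NRF2 KO CM, between 20 and 22 when each of the 6 libraries was left out in turn, 14 in the fit of 6 libraries and 20 in that fit without NRF2 KO/vehicle replicate 3. The member that did not pass was the scavenger receptor gene Cd163 (adjusted p = 0.378), at 10.7, 7.07 and 12.3 TPM with WT CM and 6.57, 4.51 and 12.9 TPM with NRF2 KO CM. Without both replicate 3 libraries of NRF2 KO CM, Cd163 passed (adjusted p = 0.0257), and 2 other members, Ccl17 and Tgm2, which like Cd163 were named after their values were seen, did not.

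Retnla, which encodes the secreted resistin-like protein RELM alpha, was abundant in each of the WT/vehicle libraries, with 1990.0, 1753 and 3262 TPM. It was listed at 0 in all 3 NRF2 KO/vehicle libraries and in all 3 of control media, so no fold is given. Arg1, the arginase that turns arginine into ornithine and urea, was at 681, 765 and 544 TPM with WT CM and at 0.548, 0.0532 and 1.29 TPM with NRF2 KO CM. Every WT CM library was at 544 TPM or more and every NRF2 KO CM library at 1.29 TPM or less, and the log2 difference was 8.74 (SE 0.21, adjusted p = 2.51e-16). Retnla lies on chromosome 16 from 48662895 to 48664824 and Arg1 on chromosome 10 from 24791118 to 24803817 of GRCm39.

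Chil3 (Ym1), a chitinase-like lectin, was at 461, 668 and 1257 TPM with WT CM and 0.966, 2.43 and 1.66 TPM with NRF2 KO CM. Rnase2a, an eosinophil-associated ribonuclease, was at 273, 291 and 149 TPM with WT CM and was listed at 0 in all 3 libraries with NRF2 KO CM and in all 3 of control media. Mgl2 (CD301b), a galactose-binding lectin of the macrophage surface, was at 1394, 1155 and 620.4 TPM against 11.4, 5.37 and 5.27 TPM. None of these groups overlapped, which is part of how the genes were chosen. The differences were 8.17 for Chil3 (SE 0.44, adjusted p = 1.59e-10) and 7.04 for Mgl2 (SE 0.45, adjusted p = 1.86e-09) on the log2 scale. Chil3 is on chromosome 3 (106054870 to 106074880), Mgl2 on chromosome 11 (70020954 to 70028376) and Rnase2a on chromosome 14 (51492719 to 51493595) of GRCm39.

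Other lectin receptors of the program were present with NRF2 KO CM and more abundant with WT CM. Clec10a (CD301a) was at 408, 356 and 295 TPM with WT CM and at 53.6, 32.3 and 26.8 TPM with NRF2 KO CM, a log2 difference of 3.31 (SE 0.17, adjusted p = 1.16e-10). Mrc1, the mannose receptor CD206, was at 1306, 1193 and 1015 TPM against 251, 238 and 500.1 TPM, a log2 difference of 1.97 (SE 0.23, adjusted p = 1.05e-05). The replicate 3 library of NRF2 KO CM was the highest of its group for Mrc1, and without it and its CDDO-Me counterpart the difference was 2.36. Cd209a, a DC-SIGN lectin, was low in both groups, with 3.23 to 3.78 TPM against 0.404 to 0.739 TPM.

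Pdcd1lg2, the PD-1 ligand PD-L2, was at 42.7, 34.8 and 70.5 TPM with WT CM and at 0.275, 0.0932 and 0.642 TPM with NRF2 KO CM (log2 difference 5.20, SE 0.29, adjusted p = 2.35e-10). Tmem26, a transmembrane protein gene, was at 62.0, 58.5 and 72.8 TPM against 1.81, 2.15 and 1.52 TPM (log2 difference 4.58, SE 0.12, adjusted p = 1.31e-15). Scn3a, a voltage-gated sodium channel gene, was at 25.6 to 50.2 TPM against 0.00924 to 0.0440 TPM, and Tarm1, an activating receptor of myeloid cells, was at 13.8 to 38.4 TPM against 0 to 0.0518 TPM. In control media these 4 genes were also low, with means of 0.342 TPM for Pdcd1lg2, 1.72 TPM for Tmem26, 0.134 TPM for Scn3a and 0.0342 TPM for Tarm1.

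**Figure D2:**
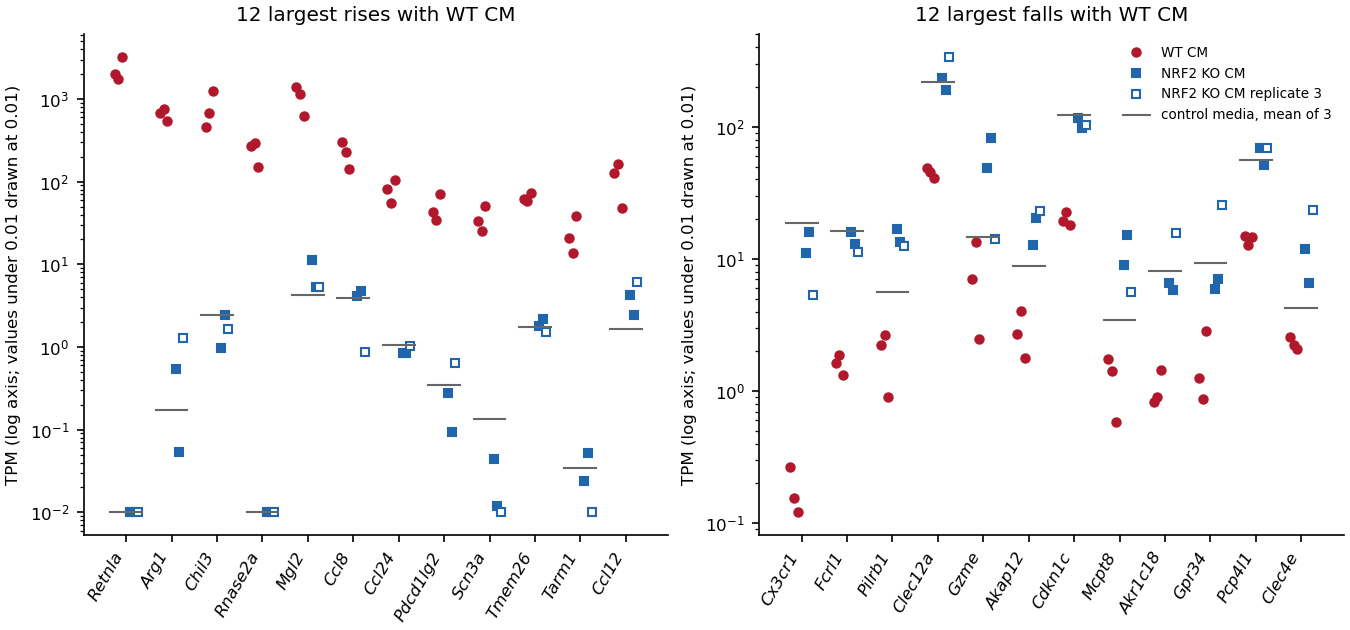
TPM in each library on a log axis for the 12 largest rises (left) and the 12 largest falls (right) with WT CM, with WT CM as circles, NRF2 KO CM as squares (replicate 3 open) and the mean of control media as a line. Values under 0.01 TPM are drawn at 0.01. The groups did not overlap in any of these 24 genes, which is part of how they were chosen.

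Along the pathway from the IL-4 receptor to STAT6, the feedback inhibitors changed most. Of 12 IL-4 and IL-13 signalling genes tested, 5 were higher and 1 was lower. Socs1, a suppressor of JAK signalling, was at 22.3, 23.1 and 25.8 TPM with WT CM and at 0.631, 1.14 and 0.169 TPM with NRF2 KO CM (log2 difference 3.99, SE 0.21, adjusted p = 1.34e-10). Cish, an inhibitor of the same family, was at 19.2, 22.3 and 31.7 TPM against 0.879, 1.49 and 3.17 TPM (log2 difference 3.24, SE 0.30, adjusted p = 5.55e-07). Every NRF2 KO CM library was at 3.17 TPM or less for both, below every WT CM library. The third such inhibitor, Socs2, which was named after its values were seen, rose by 1.14 (SE 0.24, adjusted p = 0.00411).

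The receptor and kinase genes moved less. Il4ra, the IL-4 receptor alpha chain, was at 140.3, 127 and 95.3 TPM with WT CM and 76.7, 75.0 and 69.6 TPM with NRF2 KO CM (log2 difference 0.75, SE 0.12, adjusted p = 0.000421). Jak2 was at 40.7, 43.9 and 43.6 TPM against 20.2, 22.7 and 25.6 TPM (log2 difference 0.95, SE 0.12, adjusted p = 2.55e-05). In the opposite direction, Il13ra1, the chain that pairs with Il4ra in the IL-13 receptor, was at 8.70, 9.75 and 5.03 TPM against 17.4, 18.1 and 16.4 TPM (log2 difference -1.03, SE 0.19, adjusted p = 0.00118); it was named after its values were seen. Stat6 did not pass, at 115, 116 and 111 TPM against 135, 130.2 and 76.0 TPM (log2 difference 0.11, SE 0.12, adjusted p = 0.557), and the sign of its difference turned without the replicate 3 library of NRF2 KO CM (-0.10). Il4 itself was at 15.0, 13.8 and 18.5 TPM against 19.2, 25.2 and 4.2 TPM and did not pass (adjusted p = 0.596), with a sign that also turned without that library (-0.36).

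STAT dimers bind a pair of inverted half-sites; the wider spacing, TTCNNNNGAA, is the one STAT6 prefers, while TTCNNNGAA is shared by several STATs. Both motifs read the same on either strand and were searched in the 250 bases before the start sites in RefSeq (GRCm38.p6). Of the 12 genes with the largest rise, 9 had an entry, and 4 of those 9 promoters (44.4%) held either motif; of the 12 with the largest fall, 9 had an entry and 0 of 9 did. Among all promoters of the table, 12.4% of 32851 held either motif, as did 10.3% of 12794 promoters of genes tested. The share was 10.2% of 938 promoters of the genes higher with WT CM, 7.43% of 538 promoters of the genes lower with WT CM, and 21.7% of 23 promoters of the alternative activation list. A match of letters describes the sequence, and binding was not measured. The 4 promoters with a match are shown 5′ to 3′ up to the start site, with the motif in capitals.
Retnla (chr16:48842359-48842608, plus strand): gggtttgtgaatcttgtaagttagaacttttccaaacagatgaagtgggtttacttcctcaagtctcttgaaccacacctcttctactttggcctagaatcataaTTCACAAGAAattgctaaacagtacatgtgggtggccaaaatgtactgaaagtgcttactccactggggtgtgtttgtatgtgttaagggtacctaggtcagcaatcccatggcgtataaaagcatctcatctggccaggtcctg
Chil3 (chr3:106167565-106167814, minus strand): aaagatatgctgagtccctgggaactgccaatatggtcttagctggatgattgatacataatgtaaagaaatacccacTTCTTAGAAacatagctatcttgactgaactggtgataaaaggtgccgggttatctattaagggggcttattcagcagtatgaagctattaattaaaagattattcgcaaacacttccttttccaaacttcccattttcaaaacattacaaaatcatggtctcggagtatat
Pdcd1lg2 (chr19:29410669-29410918, plus strand): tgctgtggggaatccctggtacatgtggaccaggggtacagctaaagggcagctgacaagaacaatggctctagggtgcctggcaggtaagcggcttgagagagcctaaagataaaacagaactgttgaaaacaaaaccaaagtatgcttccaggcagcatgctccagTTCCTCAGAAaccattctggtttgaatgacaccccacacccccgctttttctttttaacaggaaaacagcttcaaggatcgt
Tmem26 (chr10:68723496-68723745, plus strand): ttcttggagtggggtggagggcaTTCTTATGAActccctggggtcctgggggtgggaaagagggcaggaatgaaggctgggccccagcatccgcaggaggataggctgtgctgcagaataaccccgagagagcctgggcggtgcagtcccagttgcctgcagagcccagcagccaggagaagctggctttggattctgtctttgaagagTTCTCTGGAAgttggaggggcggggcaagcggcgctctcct

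In Retnla the match TTCACAAGAA begins 145 bases before the start site, in Chil3 TTCTTAGAA begins 172 bases before it, and in Pdcd1lg2 TTCCTCAGAA begins 82 bases before it. Tmem26 has 2 matches, TTCTTATGAA at 227 and TTCTCTGGAA at 41 bases before its start site. Ccl8, Ccl12, Mgl2, Rnase2a and Tarm1, also among the 12 largest rises, held neither motif in this window. Arg1, Ccl24 and Scn3a had no entry.

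CC chemokine genes, which encode attractants for monocytes, eosinophils and T cells, were mostly higher with WT CM. Of 12 tested, 9 were higher and 1 was lower, with a median log2 difference of 1.83. Without both replicate 3 libraries of NRF2 KO CM, 8 were higher and 3 lower, and in the fit of 6 libraries 7 were higher and 0 lower. Ccl8 was at 305, 226 and 143 TPM with WT CM and at 4.19, 4.71 and 0.873 TPM with NRF2 KO CM (log2 difference 5.88, SE 0.34, adjusted p = 4.71e-10). Ccl24 (eotaxin-2) was at 81.2, 54.6 and 104 TPM against 0.852, 0.844 and 1.02 TPM (log2 difference 5.39, SE 0.22, adjusted p = 2.92e-12). Ccl12 was at 127, 162 and 48.1 TPM against 4.22, 2.43 and 6.17 TPM (log2 difference 4.37, SE 0.42, adjusted p = 7.91e-07). For each of the 3 genes every WT CM library was above every NRF2 KO CM library, which is part of how they were chosen.

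Ccl6 was abundant in both groups, at 1516, 1595 and 2101 TPM with WT CM and 374, 377 and 235 TPM with NRF2 KO CM (log2 difference 2.49, SE 0.24, adjusted p = 9.28e-07). Ccl3 (MIP-1 alpha), the CC chemokine that was lower and was named after its values were seen, was at 40.7, 32.7 and 49.5 TPM against 123, 102 and 219.8 TPM (log2 difference -1.70, SE 0.24, adjusted p = 7.11e-05). Among 11 CXC chemokine genes tested, 0 were higher and 2 were lower. Cxcl10, which attracts T cells through CXCR3, was at 0.108, 0.0727 and 0 TPM against 3.56, 2.05 and 2.39 TPM, and Cxcl16 was at 60.1, 52.5 and 70.0 TPM against 142, 120.1 and 135 TPM. Both were lower with WT CM, by log2 differences of -1.73 (SE 0.31, adjusted p = 0.00118) and -1.05 (SE 0.20, adjusted p = 0.00153). Cxcl5 overlapped between the groups, at 22.8, 18.9 and 9.65 TPM against 24.6, 13.9 and 25.9 TPM (adjusted p = 0.733).

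Of 9 chemokine receptor genes tested, 0 were higher and 3 were lower (6.84% and 3.76% over all genes). Cx3cr1, the fractalkine receptor, had the largest fall among the named genes, at 0.268, 0.155 and 0.121 TPM with WT CM and 11.1, 15.9 and 5.36 TPM with NRF2 KO CM. Its log2 difference was -3.15 (SE 0.37, adjusted p = 1.07e-05), and control media was at 18.7 TPM on average. Cxcr4 was at 60.3, 49.2 and 104 TPM against 172, 152 and 206 TPM (adjusted p = 0.0171), and Ccr2 was at 6.36, 7.59 and 6.30 TPM against 11.1, 13.5 and 11.8 TPM (adjusted p = 0.0499). The calls of Cxcr4 and Ccr2 were each lost without 1 of several libraries, with an adjusted p of up to 0.0899 for Cxcr4 without WT/vehicle replicate 2 and up to 0.135 for Ccr2 without WT/vehicle replicate 3.

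Part of the receptors for antibodies rose, and part of the receptors for microbes fell. Of 6 Fc receptor genes tested, 3 were higher and 0 lower (6.84% and 3.76% over all genes). Fcgr2b, the inhibitory IgG receptor, was at 1135, 1059.5 and 1223 TPM with WT CM and at 145, 139.5 and 388 TPM with NRF2 KO CM (log2 difference 2.58, SE 0.36, adjusted p = 9.18e-05). Fcgr4, an activating receptor, was at 179.5, 145 and 212 TPM against 91.4, 73.8 and 84.9 TPM, and Fcgrt, which recycles IgG, was at 244, 220.5 and 210.2 TPM against 129, 136 and 36.8 TPM. None of the 3 overlapped between the groups. The replicate 3 library of NRF2 KO CM was the highest of its group for Fcgr2b and the lowest for Fcgrt, whose log2 difference of 1.43 was 0.87 without that library.

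Of 14 Toll-like receptor genes tested, counting their partner Cd180, 1 was higher and 4 were lower (6.84% and 3.76% over all genes). Tlr2, which recognises bacterial lipoproteins, was at 12.3, 12 and 10.7 TPM with WT CM and at 57.2, 48.5 and 42.9 TPM with NRF2 KO CM (log2 difference -1.92, SE 0.27, adjusted p = 6.94e-05). Tlr13, a sensor of bacterial ribosomal RNA, was at 64.0, 66.8 and 77.6 TPM against 153, 142 and 192 TPM, and Cd180 was at 88.4, 85.3 and 91.3 TPM against 168, 132 and 229 TPM. Tlr4, the receptor for lipopolysaccharide, went the other way, at 83.7, 84.1 and 85.1 TPM against 48.9, 44.6 and 52.7 TPM (log2 difference 0.85, SE 0.13, adjusted p = 0.000275). The fourth lower gene, Tlr9, was named after its values were seen, and its call was lost without WT/vehicle replicate 1 or 2 or NRF2 KO/vehicle replicate 3 (adjusted p up to 0.106). Nfkbiz, an NF-kB cofactor that Toll-like receptors induce, was at 3.40, 4.41 and 2.96 TPM against 14.0, 15.5 and 18.1 TPM (log2 difference -1.82, SE 0.17, adjusted p = 7.33e-07), and was the 1 lower gene of 13 NF-kB genes tested, with 0 higher.

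C-type lectins split, with 5 of 15 tested genes higher and 4 lower. The higher genes included Mgl2, Clec10a, Mrc1 and Cd209a, and the lower ones Clec12a and Clec4e. Clec12a, an inhibitory receptor of myeloid cells, was at 48.9, 45.9 and 41.2 TPM with WT CM and at 234, 191 and 339.9 TPM with NRF2 KO CM (log2 difference -2.36, SE 0.26, adjusted p = 4.68e-06). Clec4e (Mincle) was at 2.55, 2.24 and 2.09 TPM against 11.9, 6.58 and 23.3 TPM, and its call (adjusted p = 0.0416) was lost without any library except NRF2 KO/vehicle replicate 2, up to an adjusted p of 0.178. In the MS4A family of membrane proteins, 2 of 9 tested genes were higher and 0 lower. Ms4a4a was at 845, 558 and 953 TPM against 84.3, 51.1 and 114 TPM (log2 difference 3.33, SE 0.59, adjusted p = 0.000986), and Ms4a6d at 547, 546 and 512 TPM against 209, 195 and 248 TPM.

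Genes of antigen presentation and costimulation moved in both directions. Of 11 MHC class II pathway genes tested, 3 were higher and 0 lower. H2-DMa and H2-DMb1, which load peptides on class II molecules, were at 91.0, 76.6 and 162 TPM and 71.8, 69.7 and 113 TPM with WT CM, and at 39.1, 36.3 and 31.8 TPM and 47.5, 40.8 and 32.3 TPM with NRF2 KO CM. Their log2 differences were 1.59 (SE 0.27, adjusted p = 0.000583) and 1.11 (SE 0.23, adjusted p = 0.00372). Cd74, the invariant chain, was at 1344, 1020.1 and 2135 TPM against 923, 598 and 947 TPM, and lost its call (adjusted p = 0.0449) without WT/vehicle replicate 1 or 3 or NRF2 KO/vehicle replicate 2, up to an adjusted p of 0.234.

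Of 13 checkpoint and costimulation genes tested, 3 were higher and 3 were lower with WT CM. Besides Pdcd1lg2, Cd40, which receives help from T cells, was at 17.4, 17.0 and 17.6 TPM against 6.16, 6.72 and 5.63 TPM (log2 difference 1.42, SE 0.26, adjusted p = 0.00151), and Cd274 (PD-L1) was at 45.8, 39.7 and 58.9 TPM against 21.0, 16.1 and 23.3 TPM (log2 difference 1.28, SE 0.29, adjusted p = 0.00751). Icosl, the ligand of ICOS, was at 2.96, 2.87 and 2.41 TPM against 8.67, 7.36 and 6.16 TPM (log2 difference -1.10, SE 0.15, adjusted p = 4.67e-05), and Havcr2 (TIM-3) was at 4.64, 4.51 and 5.59 TPM against 10.8, 8.72 and 14.1 TPM (adjusted p = 0.00628). Vsir (VISTA) was the other lower gene, at 276, 243 and 258 TPM against 367, 332 and 409 TPM. Cd274 and Vsir were named after their values were seen. The call of Cd274 was lost without WT/vehicle replicate 3 (adjusted p = 0.0505), and that of Vsir, at an adjusted p of 0.0454, without any library except NRF2 KO/vehicle replicate 2 (up to 0.179).

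Interferon genes gave a mixed picture with vehicle. Of 28 type I interferon genes tested, 5 were higher and 3 lower (6.84% and 3.76% over all genes). Zbp1, a sensor of nucleic acids, was at 20.4, 14.2 and 31.1 TPM with WT CM and at 7.73, 6.59 and 6.44 TPM with NRF2 KO CM (log2 difference 1.53, SE 0.27, adjusted p = 0.000795), and Stat2, which carries the type I signal, was at 47.6, 37.7 and 48.5 TPM against 30.1, 29.8 and 23.7 TPM (log2 difference 0.73, SE 0.12, adjusted p = 0.0004). The 3 lower genes were Ifit1, Ifit2 and Ifit3, which bind viral RNA or its partners and were at 9.99 TPM or less in all 6 libraries. Ifit3 was at 0.996, 1.09 and 1.60 TPM against 6.51, 6.93 and 7.30 TPM (log2 difference -1.78, SE 0.32, adjusted p = 0.00100), and Ifit1 at 1.70, 1.02 and 0.717 TPM against 3.70, 3.26 and 7.19 TPM. Ifit2, named after its values were seen, lost its call (adjusted p = 0.0369) without any WT CM library or without NRF2 KO/vehicle replicate 3, up to an adjusted p of 0.169.

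Of 21 interferon gamma response genes tested, 4 were higher and 1, Cxcl10, was lower. Besides Socs1 these were the immunoproteasome subunits Psmb10 and Psmb9 and the tRNA synthetase gene Wars1, the last named after its values were seen. Psmb10 was at 227, 211 and 290.4 TPM against 143, 135 and 40.6 TPM, with a log2 difference of 1.44 that was 0.90 without NRF2 KO/vehicle replicate 3. Psmb9 (adjusted p = 0.0293) and Wars1 (adjusted p = 0.0441) lost their calls without that library, among others (up to 0.147 for Psmb9 without 1 library and 0.185 for Wars1). Zbp1, Stat2 and Ifit3 were called in each of the 6 fits that left out 1 library.

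Cholesterol synthesis genes were modestly higher with WT CM. Of 24 sterol synthesis genes tested, 13 were higher and 0 lower, with a median log2 difference of 0.61, and the difference was positive in 23. The count was 17 without both replicate 3 libraries of NRF2 KO CM, 5 without WT/vehicle replicate 3, 0 in the fit of 6 libraries, where the median was 0.61, and 15 in that fit without NRF2 KO/vehicle replicate 3. Mvd, mevalonate diphosphate decarboxylase, was at 53.9, 62.5 and 59.9 TPM with WT CM and at 31.7, 32.9 and 12.1 TPM with NRF2 KO CM (log2 difference 1.36, SE 0.26, adjusted p = 0.00173). Fdps, farnesyl diphosphate synthase, was at 195, 203 and 191 TPM against 109, 132 and 63.9 TPM (log2 difference 1.08, SE 0.17, adjusted p = 0.000229). Dhcr7 was at 58.0, 62.8 and 54.8 TPM against 34.5, 37.5 and 21.2 TPM, and Acat2 at 43.5, 44.8 and 34.7 TPM against 23.1, 27.6 and 17.4 TPM. The replicate 3 library of NRF2 KO CM was the lowest in all 4 genes, and the other 2 libraries of its group were still below every WT CM library.

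Of the regulators of these genes, 1 of the 2 SREBP genes passed. Srebf2, the factor that drives cholesterol synthesis, was at 89.0, 89.8 and 92.1 TPM against 83.2, 88.9 and 71.2 TPM and did not pass (adjusted p = 0.201). Srebf1, which drives fatty acid synthesis, was at 66.5, 67.3 and 68.6 TPM against 57.2, 62.4 and 39.5 TPM (log2 difference 0.44, SE 0.13, adjusted p = 0.0324) and lost its call without any WT CM library or without NRF2 KO/vehicle replicate 3, up to an adjusted p of 0.148. The cholesterol exporters diverged, since Abca1 was at 19.9, 20.3 and 18.4 TPM against 36.1, 39.5 and 33.5 TPM (log2 difference -0.80, SE 0.09, adjusted p = 6.03e-06), while Abcg1 was at 111, 118 and 129 TPM against 86.0, 86.7 and 35.5 TPM (log2 difference 0.95, SE 0.24, adjusted p = 0.0144). Abcg1 lost its call without WT/vehicle replicate 3 (adjusted p = 0.0671) or NRF2 KO/vehicle replicate 3 (adjusted p = 0.0647).

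Genes of protein folding, the integrated stress response and the TCA cycle were higher in part, with no lower member. The counts were 4 of 9 for endoplasmic reticulum chaperones, 6 of 22 for the integrated stress response and 5 of 12 for itaconate and TCA cycle genes. When each of the 6 libraries was left out in turn, they ranged from 2 (without WT/vehicle replicate 1 or 2) to 4, from 4 (without any WT CM library) to 12 (without NRF2 KO/vehicle replicate 2), and from 2 (without WT/vehicle replicate 3) to 8 (without NRF2 KO/vehicle replicate 1 or 2). Pdia4, a disulfide isomerase, was at 312, 346 and 227 TPM against 106, 134 and 91.6 TPM (log2 difference 1.47, SE 0.22, adjusted p = 0.000212), and Xbp1, a factor of the unfolded protein response, was at 243, 237 and 252 TPM against 156, 168 and 93.9 TPM (log2 difference 0.92, SE 0.12, adjusted p = 4.94e-05). Atf4, the effector of the integrated stress response, was at 188, 200.4 and 189 TPM against 117, 144 and 60.6 TPM (log2 difference 1.00, SE 0.18, adjusted p = 0.000948), and its target Mthfd2 was at 50.6, 60.8 and 39.3 TPM against 17.4, 29.2 and 12.4 TPM (adjusted p = 0.000392). Cs, citrate synthase, was at 119, 122 and 119 TPM against 100.5, 104 and 51.0 TPM (adjusted p = 0.0103), and its log2 difference of 0.63 fell to 0.34 without NRF2 KO/vehicle replicate 3. The chaperone genes Hspa5 (BiP) and Sdf2l1 were called (adjusted p = 0.0191 and 0.0218) but not without WT/vehicle replicate 1 or 2 or NRF2 KO/vehicle replicate 3, up to an adjusted p of 0.0939 and 0.0801. Asns, asparagine synthetase, overlapped between the groups (adjusted p = 0.00865), and Idh3a of the TCA cycle was higher by 0.71 (SE 0.15, adjusted p = 0.00547). Without both replicate 3 libraries of NRF2 KO CM, 7 of the 9 chaperone genes, 8 of the 22 stress response genes and 7 of the 12 TCA cycle genes were higher, and 1 stress response gene was lower. In the fit of 6 libraries, 1 of the 9 chaperone genes and 0 genes of the other 2 lists were called, and in that fit without NRF2 KO/vehicle replicate 3 the counts were 5, 4 and 2.

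In the arginine and polyamine list, 4 of 15 tested genes were higher and 0 lower. With Arg1, the arginine transporters Slc7a2 and Slc7a1 were higher. Slc7a2 was at 47.7, 47.5 and 64.0 TPM with WT CM and at 6.04, 7.51 and 5.03 TPM with NRF2 KO CM (log2 difference 2.97, SE 0.26, adjusted p = 2.27e-07), and Slc7a1 was at 12, 13.2 and 9.64 TPM against 6.18, 7.70 and 4.06 TPM (log2 difference 0.94, SE 0.15, adjusted p = 0.000399). Amd1, which makes a precursor of polyamines, was the fourth (adjusted p = 0.0168) and lost its call without WT/vehicle replicate 1 or 3 or NRF2 KO/vehicle replicate 3, up to 0.0667.

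Of 14 heme and iron genes tested, 1 was higher and 1 was lower, near the shares over all genes (6.84% and 3.76%). Tfrc, the transferrin receptor, was at 182, 203 and 235 TPM against 60.5, 82.2 and 54.6 TPM (log2 difference 1.72, SE 0.17, adjusted p = 1.14e-06), and Slc40a1, the iron exporter ferroportin, was at 41.8, 30.8 and 35.1 TPM against 142, 93.1 and 74.3 TPM (log2 difference -1.39, SE 0.26, adjusted p = 0.00133).

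Prostanoid genes were split, with 5 of 16 eicosanoid genes higher and 4 lower. Ptgs1 (COX-1) was at 111, 81.2 and 135 TPM against 27.6, 24.0 and 20.4 TPM (log2 difference 2.18, SE 0.29, adjusted p = 4.91e-05). The thromboxane synthase gene Tbxas1 and the prostaglandin E2 receptor gene Ptger2 were also higher, by 1.26 (SE 0.18, adjusted p = 0.000111) and 1.64 (SE 0.24, adjusted p = 0.000155). Hpgds, prostaglandin D synthase, was lower, at 89.9, 80.8 and 82.4 TPM against 159.9, 141 and 267 TPM (adjusted p = 0.00415).

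Among adhesion, complement and protease genes, Itgax (CD11c) was at 324, 375 and 409 TPM with WT CM and at 122, 151 and 103 TPM with NRF2 KO CM (log2 difference 1.63, SE 0.19, adjusted p = 7.68e-06). It was 1 of 3 higher genes among 16 complement genes and receptors, with C3 at 73.8, 51.2 and 41.9 TPM against 18.5, 12.5 and 18.2 TPM and Cfp (properdin) at 698, 592 and 589 TPM against 402, 302 and 163 TPM; 0 were lower. The membrane protease gene Adam8 was at 879, 873 and 755 TPM against 369.7, 341 and 137 TPM (log2 difference 1.75, SE 0.21, adjusted p = 1.11e-05), and Mmp19 at 61.4, 62.8 and 86.9 TPM against 30.2, 34.1 and 29.3 TPM, in a list of 14 with 3 higher and 0 lower. Il6st, the gp130 chain shared by IL-6 family receptors, was at 155, 166 and 133 TPM against 67.4, 78.9 and 63.2 TPM (log2 difference 1.17, SE 0.12, adjusted p = 1.25e-06). Pim1, a kinase gene that STAT3 induces, was higher by 1.41 (SE 0.30, adjusted p = 0.0046). Cybb, the catalytic subunit of the phagocyte NADPH oxidase, was lower, at 167, 156 and 197 TPM against 323, 288 and 399.9 TPM (log2 difference -0.88, SE 0.19, adjusted p = 0.00556).

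**Figure D3:**
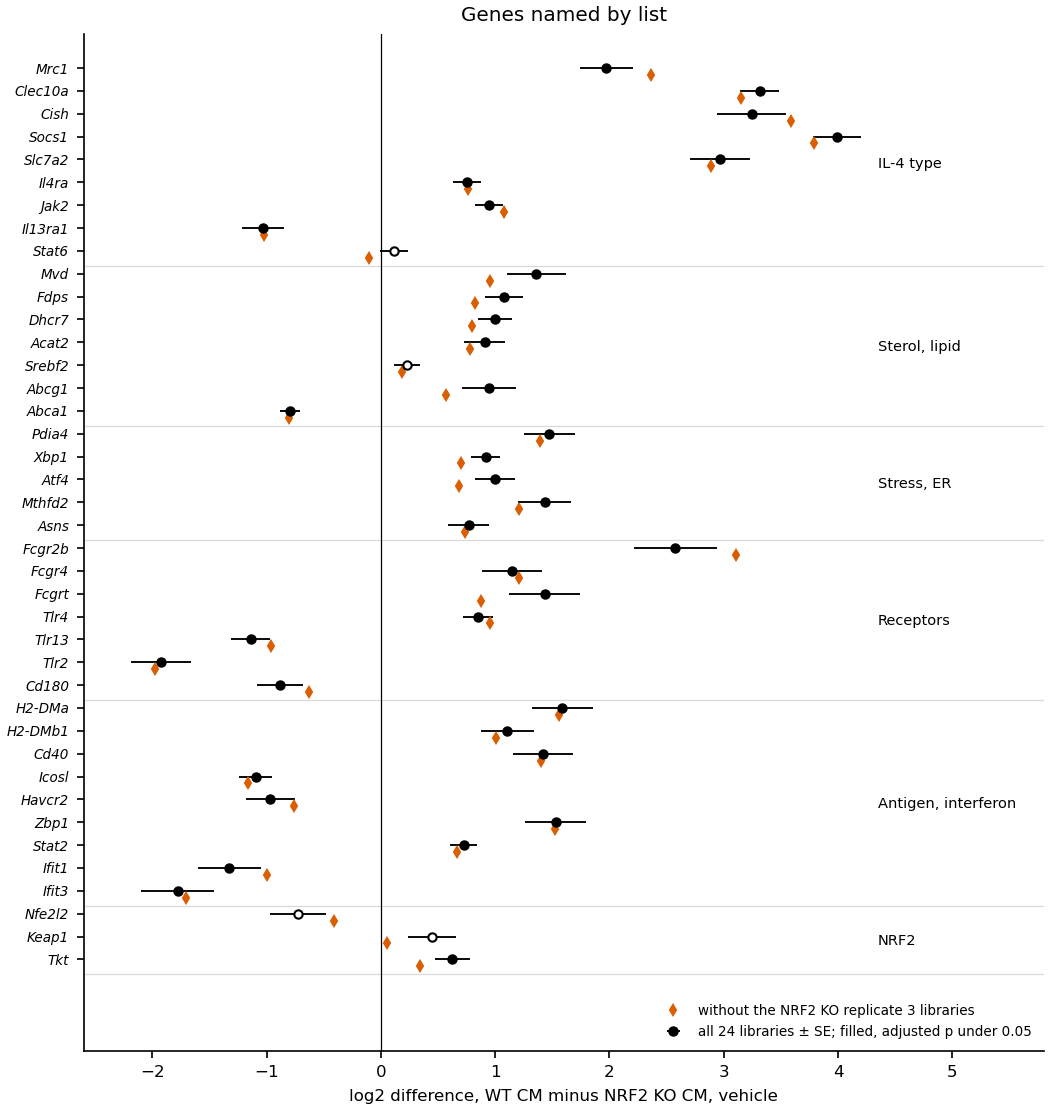
Log2 difference between WT CM and NRF2 KO CM with vehicle for genes named by list, with the SE from the fit of 24 libraries; filled circles passed adjusted p 0.05. Diamonds give the difference without the replicate 3 libraries of NRF2 KO CM, and they lie on the same side of 0 for each gene except Stat6.

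The NRF2 system of the macrophages themselves held few calls with vehicle, where 6.84% of all genes were higher and 3.76% lower. Of 22 NRF2 target genes tested, 1 was higher and 0 were lower. The groups did not overlap in 1 higher and 6 lower targets, where the shares over all genes were 10.6% and 15.8%. With CDDO-Me, 0 targets were higher with WT CM and 15 were lower, where 14.3% and 11.8% of all genes were. Of 11 genes of NRF2 and its regulators 0 passed in limma, with 2 at an unadjusted p under 0.05. Nfe2l2 was at 191, 182 and 173 TPM with WT CM and at 286, 242 and 459 TPM with NRF2 KO CM (log2 difference -0.73, SE 0.25, unadjusted p = 0.00808, adjusted p = 0.0651). Its groups did not overlap, and the adjusted p ranged from 0.0181 to 0.479 over the alternative settings. Keap1 was at 38.6, 36.1 and 38.1 TPM against 39.1, 39.3 and 15.1 TPM (adjusted p = 0.181). The higher target, Tkt (transketolase), was at 325, 329 and 355 TPM against 285, 288 and 145 TPM, a log2 difference of 0.63 (SE 0.15, adjusted p = 0.0129) that was 0.35 without NRF2 KO/vehicle replicate 3 and was not called without WT/vehicle replicate 3 (adjusted p = 0.0658).

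Other lists held few or no calls, where 6.84% of all genes were higher and 3.76% lower. Of 12 cytokine genes 0 passed in limma, with 2 at an unadjusted p under 0.05, and Il6 was near 0 in both groups, at 0.429, 0.458 and 0 TPM against 0.225, 0.230 and 0 TPM. Of 11 heat shock genes 0 passed in limma and 1 was at an unadjusted p under 0.05, and of 6 metallothionein and zinc genes and 13 mitochondrially encoded genes 0 passed in limma and 0 were at an unadjusted p under 0.05. Of 31 cell cycle genes 1 was higher. Of 19 scavenger and efferocytosis genes, 0 were higher and 2 lower.

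Without both replicate 3 libraries of NRF2 KO CM, the calls over all genes rose from 935 to 1316 higher and from 514 to 775 lower. Beside that general rise, the lists above changed as follows. The IL-4 and IL-13 list had 6 higher and 1 lower gene, the Fc receptors 4 and 1, the C-type lectins 5 and 2, and the Toll-like receptors 2 and 5. The chemokine receptors had 1 higher and 4 lower genes, the CXC chemokines 0 and 2, the checkpoint list 3 and 3, and MHC class II 3 and 0. The type I interferon list had 4 higher and 3 lower genes, interferon gamma 3 and 1, eicosanoids 5 and 3, arginine and polyamine 5 and 1, and heme and iron 2 and 3. The NRF2 targets had 1 higher and 1 lower gene, and the scavenger and efferocytosis list 2 and 9. In the fit of 6 libraries, 61 of 119 named genes tested lost their call. The IL-4 and IL-13 list had 2 higher and 0 lower genes, the C-type lectins 3 and 2, and the checkpoint list 2 and 1. Interferon gamma had 1 and 1, eicosanoids and arginine and polyamine 2 and 0, and heme and iron 1 and 0. Toll-like receptors, chemokine receptors, CXC chemokines and type I interferon had 0 and 1. Fc receptors, MHC class II, NRF2 targets and scavenger and efferocytosis genes had 0 and 0.

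**Figure D4:**
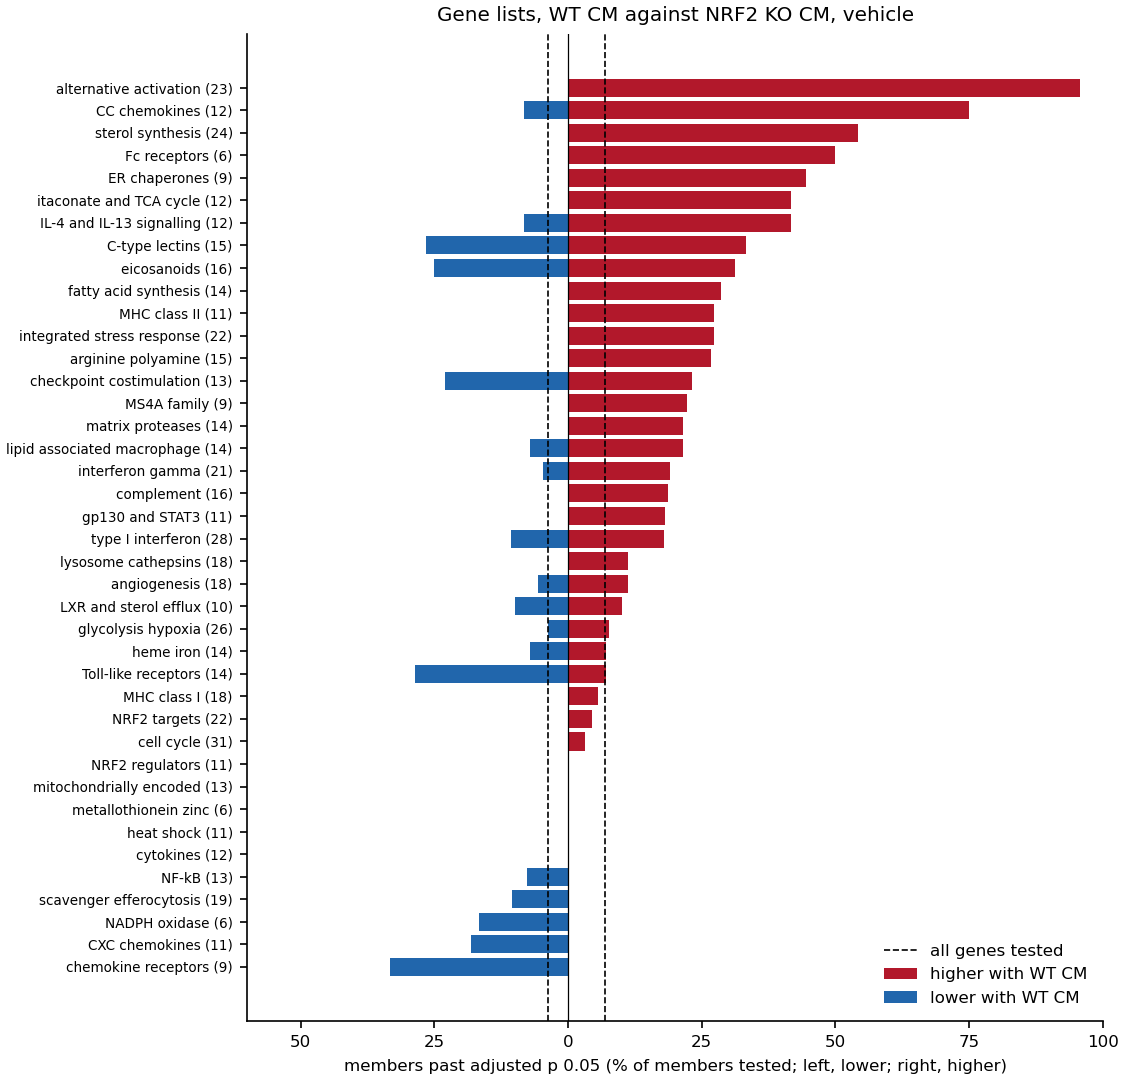
Share of the members tested that passed adjusted p 0.05 in each gene list, higher with WT CM to the right and lower to the left, with the number tested in brackets. Dashed lines mark the shares over all genes, 6.84% higher and 3.76% lower; alternative activation reaches 22 of 23 members.

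The largest falls with WT CM were found in genes of varied function. Fcrl1, an Fc receptor-like protein gene, was at 1.62, 1.86 and 1.33 TPM with WT CM and at 16.1, 13.0 and 11.3 TPM with NRF2 KO CM (log2 difference -2.40, SE 0.13, adjusted p = 1.37e-10). Cdkn1c, the cell cycle inhibitor p57, was at 19.5, 22.6 and 18.1 TPM against 116, 98.4 and 104 TPM (log2 difference -2.28, SE 0.30, adjusted p = 3.98e-05). Pcp4l1 was at 14.9, 12.7 and 14.6 TPM against 69.4, 51.2 and 68.5 TPM (log2 difference -2.01, SE 0.15, adjusted p = 2.48e-08). In these 3 genes control media was near the NRF2 KO CM level, with means of 16.2, 123 and 55.7 TPM.

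In Pilrb1 and Akap12 every NRF2 KO CM library lay above the mean of control media. Pilrb1, an activating receptor gene, was at 2.23, 2.64 and 0.899 TPM with WT CM, 16.9, 13.4 and 12.5 TPM with NRF2 KO CM and 5.58 TPM on average in control media. Akap12, a scaffold of protein kinase A, was at 2.71, 4.06 and 1.79 TPM, 12.8, 20.4 and 23.1 TPM, and 8.85 TPM in the same order. The other large falls were in genes of varied level. Akr1c18, a steroid reductase, was at 0.834, 0.899 and 1.45 TPM against 6.63, 5.85 and 15.7 TPM, and Mcpt8, a protease of basophils, at 1.75, 1.41 and 0.579 TPM against 9, 15.3 and 5.62 TPM. The granzyme gene Gzme was at 7.03, 13.5 and 2.49 TPM against 48.8, 81.8 and 14.2 TPM (adjusted p = 0.0308), and Gpr34, a lipid receptor, was at 1.26, 0.876 and 2.87 TPM against 5.90, 7.04 and 25.5 TPM (adjusted p = 0.0245). Gzme lost its call without WT/vehicle replicate 1 or 3 or NRF2 KO/vehicle replicate 1 or 2, up to an adjusted p of 0.160, and Gpr34 without WT/vehicle replicate 1 or 2 or NRF2 KO/vehicle replicate 3, up to 0.133.

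Markers of cell types moved with the groups in some lists. Macrophage markers summed to 20396 to 21046 TPM with WT CM and 26785 to 30592 TPM with NRF2 KO CM (exact permutation p = 0.1), with 2 of 14 markers higher and 3 lower. Lyz2, the most abundant of them, was at 13513, 13303 and 12966 TPM against 22829, 20010.0 and 19999 TPM. Lyz2 (adjusted p = 0.0214) lost its call without any 1 of the WT CM libraries, up to 0.0751. Neutrophil markers summed to 114 to 131 TPM against 51.9 to 65.2 TPM, and 1 of 6 tested, the G-CSF receptor gene Csf3r, was higher; Ly6g was listed at 0 in all NRF2 KO CM libraries and Retnlg in all 6. Mast cell and basophil markers summed to 1.60 to 2.12 TPM against 6.08 to 17.3 TPM, with Mcpt8 the 1 lower gene of 2 tested and Fcer1a at 0 in all 6. Fibroblast markers had 0 higher and 1 lower of 20, the smooth muscle actin gene Acta2, at 114, 142 and 123 TPM against 321, 612 and 316 TPM (adjusted p = 0.00439). With the replicate number as a block in the fit, 5 of the 20 were lower and 0 higher. Of 2 epithelial markers tested, 1 was higher and 0 lower, while Krt19 overlapped between the groups (adjusted p = 0.574). The higher one, Cdh1 (E-cadherin), was at 3.06, 4.04 and 3.46 TPM with WT CM and was listed at 0 in all 3 libraries with NRF2 KO CM. The part of these cell types in the results above was not tested.

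With respect to control media, most of these genes had their NRF2 KO CM value nearer. Of the 1449 genes called, the mean log2 level in control media was nearer to NRF2 KO CM in 1125. The share over all genes tested was not computed, so this count has no background to be set against. For Mgl2 control media was at 4.25 TPM on average, for Socs1 at 0.942 TPM, for Fcgr2b at 128 TPM and for Tlr2 at 41.8 TPM, each beside the NRF2 KO CM values above. Macrophages with KEAP1 KO CM and vehicle had Arg1 at 1001 ± 104 TPM, Chil3 at 793 ± 349 TPM, Mrc1 at 1178 ± 31.6 TPM and Cx3cr1 at 0.345 ± 0.146 TPM (SD, n = 3 each), values nearer to WT CM than to NRF2 KO CM. These levels are a description and were not tested.

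The difference between WT CM and NRF2 KO CM depended on CDDO-Me for many genes. With CDDO-Me, 3558 genes passed (26% of the genes tested), 1952 higher and 1606 lower with WT CM. The test of the difference of differences called 1834 genes (13.4%), and 2859 without the replicate 3 libraries of NRF2 KO CM. Of the 1449 genes called with vehicle, 518 were called with CDDO-Me with the same sign, 191 with the opposite sign and 740 were not called.

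With CDDO-Me, the leading genes of alternative activation were at their low level in both CM groups. Retnla was listed at 0 in all 6 libraries with CDDO-Me, and Arg1 was at 0.239, 0.0823 and 0.0554 TPM with WT CM and at 0.0281, 0.427 and 0 TPM with NRF2 KO CM. Mgl2 was at 13.6, 17.5 and 4.10 TPM against 16.7, 15.2 and 8.42 TPM (difference of log2 differences 7.22, SE 0.64, adjusted p = 7.88e-08). Mrc1 turned, at 59.9, 76.2 and 48.3 TPM with WT CM against 199, 221 and 258 TPM with NRF2 KO CM. Over the 23 list members, 20 had a difference of differences past the threshold, where 13.4% of all genes did.

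For Pdcd1lg2, Ccl8 and Ccl12, the WT CM libraries were also above the NRF2 KO CM libraries with CDDO-Me. Pdcd1lg2 was at 25.7, 26.9 and 31.9 TPM with WT CM and at 0.0741, 0.207 and 0.487 TPM with NRF2 KO CM, a log2 difference of 4.68 (SE 0.29, adjusted p = 2.27e-10), and the difference of differences was 0.53 (SE 0.41, adjusted p = 0.523). Ccl8 was at 66.5, 118 and 76.1 TPM against 1.83, 1.61 and 0.910 TPM, and Ccl12 at 21.5, 43.2 and 18.6 TPM against 0.596, 0.881 and 0 TPM, with log2 differences of 5.30 (SE 0.34) and 4.38 (SE 0.42). For both the difference of differences did not pass (adjusted p = 0.559 and 0.997).

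Interferon genes differed between vehicle and CDDO-Me, with 20 of 21 interferon gamma genes and 27 of 28 type I interferon genes past the test of the difference of differences. Cxcl10, which was at 0.108 TPM or less in the WT/vehicle libraries, was at 361, 329 and 358 TPM with WT CM and CDDO-Me and at 1.32, 0.873 and 1.5 TPM with NRF2 KO CM and CDDO-Me. All 21 interferon gamma genes tested and all 28 type I interferon genes were higher with WT CM in the presence of CDDO-Me, where 26% of all genes were called in either direction and 14.3% were called higher.

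**Figure D5:**
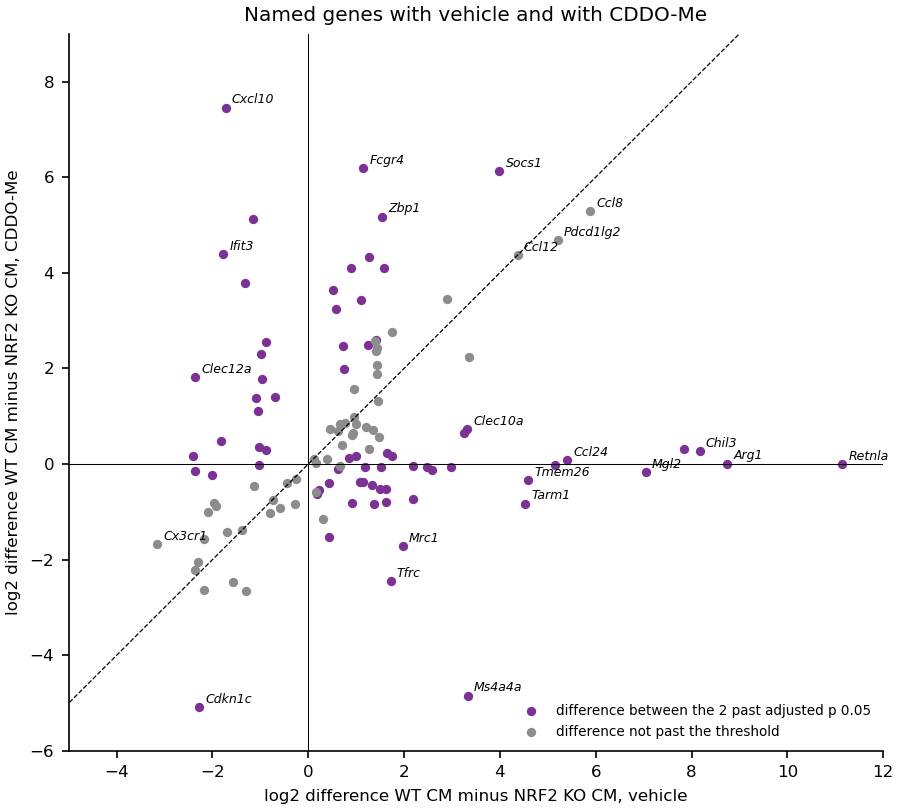
For each named gene, the log2 difference between WT CM and NRF2 KO CM with vehicle (x axis) is plotted against the same difference with CDDO-Me (y axis); purple points had a difference between the 2 past adjusted p 0.05, and the dashed line marks equal values. Retnla, Arg1, Chil3 and Mgl2 lie near 0 on the y axis, while Ccl8, Pdcd1lg2 and Ccl12 lie near the dashed line.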

How the data were processed

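RNA from 24 BMDM libraries was measured by poly-A RNA sequencing, and the 6 libraries of WT/vehicle and NRF2 KO/vehicle were compared. The authors had reads filtered by Novogene and quantified them with Kallisto 0.51.0 on GRCm39 transcripts, and their deposited table gives TPM of 35770 named genes. The paper states an average depth, but the depth of each library is unknown, and the number of libraries limits the precision. A single line without a gene name, 0.0199% to 0.0635% of the total, was left out. Groups came from the sample labels, which state 3 independent samples a group. Neither the labels nor the paper say whether these samples came from separate mice. The limma p-values rest on the spread within groups, pooled over all 8 groups, so they may not measure variation between mice. TPM were scaled by trimmed means of M values without weights (trimming 30% by M and 5% by A), and log2 values with a pseudocount of 1 were fitted with limma 3.58.1 in R 4.3.3, with a trend on the mean level. Genes above 1 TPM in at least 3 of the 24 libraries were tested with all 8 groups in 1 fit (16 residual degrees of freedom), and p-values are two-sided and corrected over every gene tested (Benjamini-Hochberg). Fold changes are on the log2(TPM + 1) scale, which understates those of low genes. Count models were not used, since the unit is TPM.

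Named genes were the 12 largest rises and 12 largest falls among called genes with a mean of at least 1 TPM and no overlap between the groups, up to 4 members with the smallest p of each gene list, and a few fixed names. Predicted genes (Gm and Rik names) were not named. The members, gene lists and named genes were chosen with earlier results of these data known. Single values of a library were compared by two-sided exact permutation tests. Transcript counting without strand cannot separate overlapping genes, and reads of near-identical genes, such as Chil3 with Chil4 or Clec10a with Mgl2, may be shared. Coordinates are from the GENCODE annotation of GRCm39. No 2 of the 24 libraries held identical values. Figures were drawn with matplotlib. The fit was tested on simulated data with planted changes. Alternatives were RLE scaling, no scaling, no filter, a mean of at least 5 TPM, and pseudocounts of 0.1 and 5. Fits with no trend, the compared groups alone, array weights or a replicate block were also made. Each library and each replicate number was left out in turn. Leaving out both replicate 3 libraries of NRF2 KO CM was added after the data were seen. So was the fit of the compared groups alone without NRF2 KO/vehicle replicate 3. Items withheld from this text are not reported here.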

Additional observations from a re-analysis of the deposited data

Results flagged for a closer look

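The difference between WT CM and NRF2 KO CM was itself different between vehicle and CDDO-Me for 1834 genes, by limma's test of the difference of differences at an adjusted p under 0.05. Among the 121 genes followed by name, 70 passed, where 13.4% of all genes tested did. Many of the 121 were named for their difference with vehicle, which is part of this test. The 70 therefore cannot be set directly against that share. The values of the 70 genes are the log2 difference with vehicle minus that with CDDO-Me. Those of Retnla, Rnase2a and Cdh1 depend on the pseudocount, since all of them were listed at 0 in every NRF2 KO/vehicle library. The same holds for genes near 0 TPM in a group, such as Scn3a, Tarm1, Ccl17 and Cxcl10. Among the largest rises with WT CM, the values were 11.14 for Retnla, 8.73 for Arg1, 7.90 for Chil3, 7.52 for Rnase2a, 7.22 for Mgl2, 5.32 for Ccl24, 5.16 for Scn3a, 4.92 for Tmem26 and 5.35 for Tarm1. For other genes of alternative activation and IL-4 signalling they were 3.69 for Mrc1, 2.58 for Clec10a, 2.42 for Cd209a, 3.02 for Slc7a2, 2.60 for Cish, -2.14 for Socs1, 1.51 for Socs2, -1.23 for Il4ra and -1.38 for Il13ra1. Among the largest falls they were -2.56 for Fcrl1, -2.23 for Pilrb1, -4.18 for Clec12a, 2.81 for Cdkn1c and -1.77 for Pcp4l1. Chemokine genes and receptors gave 2.55 for Ccl6, -9.18 for Cxcl10, -2.16 for Cxcl16 and -2.11 for Ccr2. Receptor and MS4A genes gave 2.71 for Fcgr2b, -5.05 for Fcgr4, 8.17 for Ms4a4a, 2.21 for Ms4a6d, -3.43 for Cd180, -3.29 for Tlr9, 0.72 for Tlr4 and -2.30 for Nfkbiz. In antigen presentation and costimulation the values were -2.52 for H2-DMa, -2.33 for H2-DMb1, -3.20 for Cd74, -1.18 for Cd40, -3.05 for Cd274, -2.74 for Havcr2 and -2.49 for Icosl. In interferon genes they were -5.11 for Ifit1, -6.28 for Ifit2, -6.16 for Ifit3, -1.75 for Stat2, -3.65 for Zbp1, -3.12 for Wars1 and -2.66 for Psmb9. Eicosanoid genes gave 2.91 for Ptgs1, 1.41 for Ptger2, -1.23 for Tbxas1 and -1.01 for Hpgds. Sterol and lipid genes gave 1.45 for Fdps, 0.83 for Dhcr7, 1.73 for Acat2, 0.84 for Srebf1 and 0.78 for Srebf2. The remaining genes gave 4.18 for Tfrc, 1.58 for Adam8, 2.16 for Itgax, 1.24 for Il6st, 0.74 for Tkt, -1.18 for Cybb, 2.23 for Cdh1, 1.60 for Csf3r, 1.77 for Acp5, 1.95 for Cd163, 0.80 for Cd68 and 2.03 for Ccl17. A positive value means that the signed log2 difference, WT CM minus NRF2 KO CM, was greater with vehicle than with CDDO-Me, and a negative value that it was smaller. No group had more than 3 libraries, so single libraries were not tested for standing apart within a group.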

How the results depend on the processing

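Over 21 alternative settings, the 1449 genes called kept the sign of their difference wherever they were tested. The count was 168 with only the compared groups in the fit, 1208 in that fit without NRF2 KO/vehicle replicate 3, 3396 with array weights and 2550 with the replicate number as a block, which called all 1449 genes again. When 1 library or 1 replicate number was left out, it ranged from 767 to 2476; it was 811 without WT/vehicle replicate 3, 900 without WT/vehicle replicate 1 and 2476 without NRF2 KO/vehicle replicate 1. The 1834 genes that differed between vehicle and CDDO-Me became 1135 with only the compared groups, 4493 with array weights, 2578 with the replicate block and 2859 without the replicate 3 libraries of NRF2 KO CM, and ranged from 1050 to 2527 when 1 library or 1 replicate number was left out (1050 without replicate 1 and 1210 without replicate 2 of every group). The cause of these shifts was not tested. Same-numbered libraries of the compared groups deviated together with r of 0.0822, 0.227 and 0.127 across genes, and each correlated best with its own number. Pairs with unlike numbers had r of 0.00314 or less. The deviations of a gene cancel out within a group, so a positive r for like numbers by itself lowers r for unlike numbers. The labels do not say whether a shared number means a shared mouse or day of culture. The main fit did not pair the libraries, so variation shared by a replicate number stayed in its error, unlike in the fit with the replicate block.

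Of 2524 values of 121 named genes over these settings, 2268 stayed on their side of the threshold with the same sign, 234 lost the call, 8 gained it and 14 changed sign. The sign changed for 4 genes, none of them called. Stat6 was at -0.11 with array weights, -0.10 without NRF2 KO/vehicle replicate 3 or both replicate 3 libraries of NRF2 KO CM, -0.11 without replicate 3 of every group and -0.097 in the fit of 5 libraries. Il4 was at -0.35, -0.36, -0.49 and -0.35 in the same order. Cxcl5 was at 0.091 with array weights, 0.048 without WT/vehicle replicate 3 and 0.25 without replicate 3 of every group, and Cd68 was at -0.0032 without NRF2 KO/vehicle replicate 2. When each library was left out in turn, the log2 difference reached 0.26 for Stat6, 0.73 for Il4, -0.59 for Cxcl5 and 0.37 for Cd68 at its other end. The depth of each library behind the TPM values is unknown, so no limit from counting could be given.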

Other observations

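Markers of dendritic cells and osteoclasts held 3 further genes that were higher with WT CM. Batf3, a factor of dendritic and T cells, was at 50.2, 49.1 and 60.9 TPM with WT CM and at 5.10, 6.97 and 2.51 TPM with NRF2 KO CM (log2 difference 3.35, SE 0.30, adjusted p = 3.26e-07 in limma). It was the 1 higher gene of 5 dendritic cell markers tested, and the sum of these markers overlapped between the groups, at 90.0 to 109 TPM against 48.6 to 132 TPM. Among 5 osteoclast markers tested, 2 were higher and 0 lower. Ocstamp, which acts in fusion of osteoclast precursors, was at 7.19, 6.02 and 16.9 TPM against 0.462, 0.259 and 0.432 TPM (log2 difference 2.89, SE 0.27, adjusted p = 5.36e-07), and Acp5, the tartrate-resistant acid phosphatase, was at 39.9, 56.8 and 53.0 TPM against 21.9, 28.9 and 12.5 TPM (log2 difference 1.33, SE 0.25, adjusted p = 0.00172).

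Transcripts of ribosomal proteins summed to 103920 to 112460 TPM with WT CM and to 79245 to 99274 TPM with NRF2 KO CM (two-sided exact permutation p = 0.1, the smallest that 3 libraries against 3 allow).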
